A study of Homo sapiens with 36 samples.

Results

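CLDN4 and 8 other genes of the tight junction, 9 of the 26485 gene symbols counted, were followed in human breast cancer cells whose isoleucine tRNAs were altered. CLDN4 was selected on measured values, its lower level in isoswitch than in control total RNA, and that comparison is therefore given without a test. The other members were listed by symbol with earlier results of these data known: the claudins CLDN1, CLDN3, CLDN7 and CLDN12, the membrane proteins OCLN and MARVELD2, the adhesion molecule F11R, and the scaffold TJP1. All 9 symbols were found in each of the 36 libraries.

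The study asked which transcripts are highly translated when the supply of 2 isoleucine tRNAs is shifted in MDA-MB-231, an established triple-negative breast cancer cell line. Isoswitch cells carried CRISPR interference (CRISPRi) against tRNAIleGAU, an isoleucine tRNA named by its anticodon, and overexpressed tRNAIleUAU. GAUi cells carried the same CRISPRi with a control overexpression construct. UAU cells carried CRISPRi against eGFP, a reporter gene that is not human, with the UAU overexpression, and control cells carried CRISPRi against eGFP with the control construct. Every cell thus carried a CRISPRi and an overexpression construct, and all were exposed to cycloheximide, which holds ribosomes on mRNA, before lysis. Each line gave 3 libraries (A, B and C) of total RNA, of a low fraction of the polysome gradient (single ribosomes and the first polysome peak) and of a high fraction (heavier polysomes). The labels call the source a xenograft cell line and do not say whether a line was 1 clone, or whether A, B and C were grown separately. The p-values therefore cover only the variation among the libraries at hand, which may be technical. The tRNAs themselves are not read by these libraries, which hold 3' ends of polyadenylated RNA, and their levels were not measured.

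Tight junctions seal the space between neighbouring epithelial cells. Claudins are the membrane proteins that form the sealing strands and set which ions pass, occludin and tricellulin (products of OCLN and MARVELD2) join the strands, JAM-A (F11R) is an immunoglobulin-like adhesion molecule, and ZO-1 (TJP1) ties them to actin. MDA-MB-231 belongs to the claudin-low type of breast cancer line, which has lost much of this programme along with E-cadherin. The GAU anticodon reads the isoleucine codons ending in C and U, and the UAU anticodon reads the rare codon AUA.

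Each library held between 5192464 and 8974001 counts. Levels are given in CPM, counts set to a common library total and scaled between all libraries, as single libraries or mean ± SD of 3. Of the MDA-MB-231 markers, VIM had a mean of 1756 CPM over the 36 libraries, CD44 224 CPM, EGFR 72.7 CPM and SPARC 0.449 CPM. Of the luminal markers, E-cadherin (CDH1) had 0.0467 CPM and ESR1 0.0647 CPM, while KRT18 had 191 CPM and EPCAM 14.5 CPM. CD3E, CDH5 and CLDN5, markers of T cells and endothelium, had 0 counts in every library, while PECAM1 had a mean of 3.55 CPM, KDR 0.373 CPM and CD68 7.99 CPM. The 3 GAUi libraries of total RNA differed from each other more than most: the chi-square per degree of freedom between pairs ran from 8.01 to 22.3, against 1.76 to 14.7 within the other groups. In the low fraction, control replicate B stood apart from A (14.7) and from C (12.8), while A and C had 2.76 between them.

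Positions are those of RefSeq for GRCh38.p14. CLDN4 (gene 1364) spans chr7:73830996-73832690 on the plus strand, 60725 bases from the end of CLDN3 (chr7:73768997-73770270, minus strand), and CLDN12 lies elsewhere on the same chromosome (chr7:90403461-90415954). CLDN7 spans chr17:7259903-7263213 on the minus strand. The promoters of the 3 claudins called in GAUi against control in the high fraction follow, each from 250 bases before to 50 after an annotated start, as RefSeq gives them for GRCh38.p14. Capitals mark the E2-box (CACCTG, or CAGGTG on the other strand), the letters that repressors of epithelial genes such as ZEB1 and SNAI1 bind, and the GC box (GGGCGG, or CCGCCC), which SP1 and KLF factors bind.
CLDN4, chr7:73830746-73831045, plus strand: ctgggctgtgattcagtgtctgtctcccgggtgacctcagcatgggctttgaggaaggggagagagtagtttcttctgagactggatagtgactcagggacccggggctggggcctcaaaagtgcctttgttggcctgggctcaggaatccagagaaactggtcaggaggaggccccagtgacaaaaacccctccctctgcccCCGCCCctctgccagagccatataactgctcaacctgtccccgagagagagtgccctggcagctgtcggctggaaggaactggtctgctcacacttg
CLDN12, chr7:90403211-90403510, plus strand: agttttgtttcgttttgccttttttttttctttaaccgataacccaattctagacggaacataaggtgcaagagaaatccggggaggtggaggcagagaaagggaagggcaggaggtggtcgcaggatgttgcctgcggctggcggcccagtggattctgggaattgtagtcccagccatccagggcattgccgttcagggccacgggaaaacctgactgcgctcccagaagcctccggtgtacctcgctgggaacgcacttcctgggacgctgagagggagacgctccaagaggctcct
CLDN7, second annotated start, chr17:7262429-7262728, minus strand: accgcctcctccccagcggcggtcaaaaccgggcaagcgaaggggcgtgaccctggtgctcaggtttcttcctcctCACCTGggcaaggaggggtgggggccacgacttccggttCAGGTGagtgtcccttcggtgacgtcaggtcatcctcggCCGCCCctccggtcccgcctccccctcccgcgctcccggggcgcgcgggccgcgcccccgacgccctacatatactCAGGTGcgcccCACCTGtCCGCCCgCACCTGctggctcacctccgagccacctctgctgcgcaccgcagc
The CLDN4 window held 0 E2-boxes and 1 GC box, the CLDN12 window held neither, and the CLDN7 window held 5 E2-boxes and 2 GC boxes. The other CLDN7 start (chr17:7263164-7263463) held neither. At least 1 E2-box stood in 5 of the 13 member starts and in 20.6% of all 35116 RefSeq promoters of this length, and at least 1 GC box in 9 of 13 and 45.0%. TJP1, OCLN and CLDN7 had more than 1 start each among the 13, and the OCLN windows overlapped, so the starts are not separate promoters. The counts of E2-boxes and GC boxes are matches of letters only.

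CLDN4 was lower in both lines with GAU CRISPRi in each of the 3 fractions, at 39.2% to 49.0% of the fitted level of the UAU or control line it was tested against. UAU overexpression gave no called change of CLDN4 in any fraction. CLDN4 binds ZO-1 through its tail and is one of the receptors of the Clostridium perfringens enterotoxin. In total RNA it had 26.9, 22.4 and 28.8 CPM in isoswitch libraries, 26.1, 19.2 and 19.8 CPM in GAUi, 60.6, 56.0 and 60.6 CPM in UAU, and 51.0, 61.8 and 53.2 CPM in control. Every isoswitch and GAUi library was below every UAU and control library. The contrast that selected the gene, isoswitch over control in total RNA, had a log2 fold change of -1.07 (26.04 ± 3.31 CPM in isoswitch, 55.34 ± 5.70 CPM in control, SD, n = 3 each), given as a description.

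**Figure D1:**
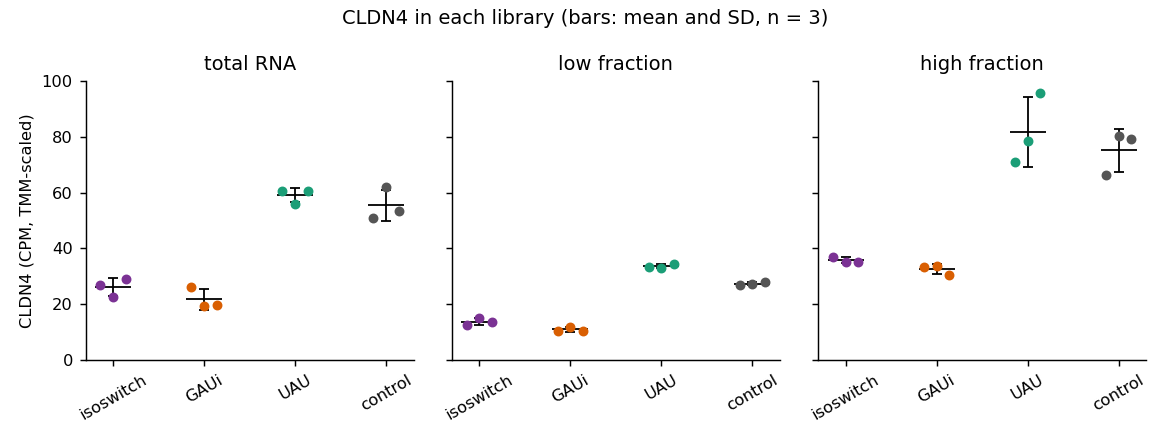
CLDN4 in CPM (y axis, linear, from 0) in each library of isoswitch, GAUi, UAU and control cells (x axis) for total RNA, low and high fraction. Points are libraries and bars the mean and SD of 3. In each panel all isoswitch and GAUi points lie below all UAU and control points, for instance at most 37.0 CPM against at least 66.1 CPM in the high fraction.

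In the fractions, whose libraries took no part in that choice, the same order held. CLDN4 had in the low fraction 12.3, 14.9 and 13.5 CPM in isoswitch, 10.4, 11.8 and 10.4 CPM in GAUi, 33.3, 32.9 and 34.4 CPM in UAU, and 26.7, 27.3 and 27.8 CPM in control. Here no line overlapped another. In the high fraction it had 37.0, 35.1 and 35.2 CPM in isoswitch, 33.4, 33.7 and 30.3 CPM in GAUi, 70.9, 78.3 and 95.6 CPM in UAU, and 66.1, 80.1 and 79.2 CPM in control. UAU and control overlapped there, and every isoswitch library was above every GAUi library. In bulk samples, fewer cells with the transcript and less transcript per cell cannot be told apart.

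The differences were tested with edgeR's quasi-likelihood test over all genes, with Benjamini-Hochberg adjustment, and called at an adjusted p under 0.05. GAUi against control gave log2 fold changes of -1.35 (SE 0.13, adjusted p = 2.93e-06) in total RNA, -1.35 (SE 0.13, adjusted p = 8.94e-06) in the low fraction and -1.20 (SE 0.11, adjusted p = 8.64e-08) in the high fraction. Isoswitch against UAU, the same CRISPRi on the overexpression background and with no library in common with GAUi against control, gave -1.19 (SE 0.13, adjusted p = 1.85e-05), -1.30 (SE 0.12, adjusted p = 7.5e-06) and -1.22 (SE 0.11, adjusted p = 7.33e-09) in the same order. Isoswitch against control gave -1.03 (SE 0.12, adjusted p = 0.000167) in the low and -1.08 (SE 0.11, adjusted p = 4.5e-07) in the high fraction. All tests in total RNA use isoswitch or control libraries that also entered the selecting contrast. In the fractions, isoswitch against control repeats that contrast in the same lines, so it is not independent of the selection. GAUi against control there shares the control line with it, and isoswitch against UAU the isoswitch line. Those tests are thus not fully independent of the selection either. The 8 calls held under every alternative processing and without any single library.

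The order of CLDN4 in each fraction was UAU, control, isoswitch and GAUi, from high to low. Neither pair of neighbours, UAU and control or isoswitch and GAUi, was called in any fraction. UAU against control had log2 fold changes of 0.12 (95% interval -0.11 to 0.36, adjusted p = 0.725) in total RNA, 0.27 (0.05 to 0.50, adjusted p = 0.285) in the low fraction and 0.14 (-0.06 to 0.35, adjusted p = 0.322) in the high fraction, in edgeR's test. Isoswitch against GAUi had 0.27 (0.01 to 0.54, adjusted p = 0.396), 0.32 (0.06 to 0.58, adjusted p = 0.631) and 0.13 (-0.11 to 0.36, adjusted p = 0.528). The effect of UAU overexpression in the GAU CRISPRi background minus that in the eGFP background, the interaction, was 0.15 (-0.20 to 0.50) in total RNA, 0.05 (-0.29 to 0.39) in the low and -0.02 (-0.33 to 0.29) in the high fraction, with adjusted p of 0.828, 0.952 and 0.939.

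Markers of other cell types were summed beside CLDN4, and their part in its difference was not tested. In total RNA the 12 luminal markers summed to 546 to 561 CPM in isoswitch, 561 to 620 CPM in GAUi, 471 to 502 CPM in UAU and 517 to 537 CPM in control, so that the lines with GAU CRISPRi were above the others. Of 7 tested there, 0 rose and 1 fell in GAUi against control, against 10.1% of all genes called. In isoswitch against UAU 0 were called, against 3.42%. The marker that fell, MUC1, was scarce, at 1.41 ± 0.609 CPM in GAUi and 3.82 ± 1.11 CPM in control (SD, n = 3 each). The 7 leukocyte markers summed to at most 18.7 CPM in any library, the 6 endothelial markers to at most 8.09 CPM and the 8 fibroblast markers to at most 5.92 CPM. PECAM1, the 1 endothelial marker tested, fell in GAUi against control in total RNA (2.22 ± 0.465 CPM in GAUi, 3.99 ± 0.526 CPM in control, SD, n = 3 each, log2 fold change -0.86, edgeR adjusted p = 0.0377). CD68, the 1 leukocyte marker tested, rose in the high fraction in isoswitch against UAU (0.77, edgeR adjusted p = 0.00234) and fell in UAU against control (-0.61, adjusted p = 0.0212). The 6 MDA-MB-231 markers summed to 1794 to 2128 CPM in isoswitch, 1236 to 1343 CPM in GAUi, 1107 to 1208 CPM in UAU and 1315 to 1718 CPM in control in the high fraction. Of the 5 tested there, 1 fell in GAUi against control, VIM, against 10.1% of all genes called, and 1 rose in isoswitch against control, VIM again, against 11%. In isoswitch against UAU 3 of 5 rose, VIM (log2 fold change 0.90), CD44 (0.89) and PLAU (0.63), against 41.6% of all genes, and the same 3 fell in UAU against control, against 28.7%. In that fraction the luminal markers summed to 439 to 504 CPM in isoswitch, 338 to 371 CPM in GAUi, 243 to 343 CPM in UAU and 400 to 422 CPM in control. Of 7 luminal markers tested there, 2 rose in isoswitch against control (GATA3 and KRT8), 0 were called in GAUi against control, 4 rose and 1 fell in isoswitch against UAU, and 4 fell in UAU against control, beside the same backgrounds.

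Among the other claudins, CLDN7 was higher and CLDN12 lower with GAU CRISPRi in the high fraction, CLDN1 was higher in isoswitch than in UAU cells in total RNA and the high fraction, and CLDN3 was scarce. CLDN7 is a claudin found along the lateral membrane, often with EPCAM. In the high fraction it had 41.3, 49.6 and 44.3 CPM in isoswitch, 38.9, 44.5 and 47.4 CPM in GAUi, 34.03, 31.70 and 34.18 CPM in UAU, and 31.19, 35.90 and 33.96 CPM in control. The lines with GAU CRISPRi did not overlap those without it. CLDN7 rose in isoswitch against control (log2 fold change 0.41, SE 0.11, adjusted p = 0.0116), in GAUi against control (0.38, SE 0.11, adjusted p = 0.0241) and in isoswitch against UAU (0.40, SE 0.11, adjusted p = 0.00353), by edgeR. The call for isoswitch against control ended without control replicate A (adjusted p = 0.0607) or isoswitch replicate B (0.0689). That for GAUi against control ended without control replicate A (adjusted p = 0.13), GAUi replicate B (0.0785) or GAUi replicate C (0.112).

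In the low fraction CLDN7 had 34.84, 34.51 and 34.01 CPM in isoswitch, 33.53, 30.02 and 32.18 CPM in GAUi, 28.2, 30.3 and 31.6 CPM in UAU, and 23.3, 21.9 and 25.4 CPM in control. Control was below every other library. CLDN7 rose in isoswitch against control (log2 fold change 0.53, SE 0.11, edgeR adjusted p = 0.0127), a call that ended without isoswitch replicate A (0.0563) or with the 2 groups fitted alone (0.0846). In GAUi against control it had 0.41 (SE 0.11, edgeR adjusted p = 0.049), and that call ended under 10 of 11 alternatives, with adjusted p up to 0.172. UAU against control had 0.33 (95% interval 0.11 to 0.54, adjusted p = 0.182). In total RNA CLDN7 averaged 23.3 ± 2.04 CPM in isoswitch, 21.7 ± 5.36 CPM in GAUi, 20.6 ± 1.03 CPM in UAU and 18.2 ± 1.20 CPM in control (SD, n = 3 each), with no call in GAUi or UAU against control or isoswitch against UAU. The isoswitch over control value there, a description, was 0.37.

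CLDN7 and ELP5, a subunit gene of the Elongator complex that modifies tRNA wobble bases, run towards each other and share 38 bases at their 3' ends, where these libraries read. Whether counting used strand is not given in the sources used here, so reads of the pair may not have been told apart, and the CLDN7 values are uncertain to that extent. ELP5 itself had log2 fold changes in the high fraction of 0.17 (SE 0.11, adjusted p = 0.36) in isoswitch, 0.35 (SE 0.11, adjusted p = 0.044) in GAUi and 0.40 (SE 0.11, adjusted p = 0.00778) in UAU, each against control. In the low fraction ELP5 had 0.37 (SE 0.15, edgeR adjusted p = 0.231), 0.33 (SE 0.15, adjusted p = 0.256) and 0.28 (SE 0.15, adjusted p = 0.415), in the same order. CLDN7 had 0.53, 0.41 and 0.33 there. In total RNA ELP5 had 0.21 in GAUi and 0.14 in UAU against control, beside 0.24 and 0.20 for CLDN7. The part of ELP5 in the CLDN7 values was not tested.

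Within a library, the counts of CLDN4 per count of CLDN7 are free of scaling between libraries. In total RNA there were 0.875 to 1.33 CLDN4 counts per CLDN7 count in isoswitch, 0.746 to 1.21 in GAUi, 2.81 to 2.94 in UAU and 2.91 to 3.18 in control. The ratio in the low fraction was 0.354 to 0.431 in isoswitch, 0.309 to 0.392 in GAUi, 1.09 to 1.18 in UAU and 1.09 to 1.25 in control. In the high fraction it was 0.707 to 0.895 in isoswitch, 0.640 to 0.858 in GAUi, 2.08 to 2.80 in UAU and 2.12 to 2.33 in control. The lines with GAU CRISPRi lay below those without it in all 3 fractions, with no overlap. The ratio is a description: in total RNA it uses the values that selected CLDN4, and in the high fraction CLDN7 was itself higher with GAU CRISPRi. In the low fraction CLDN7 was called higher in isoswitch and GAUi than in control, though not in isoswitch against UAU. The CLDN7 counts may also hold ELP5 reads.

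**Figure D2:**
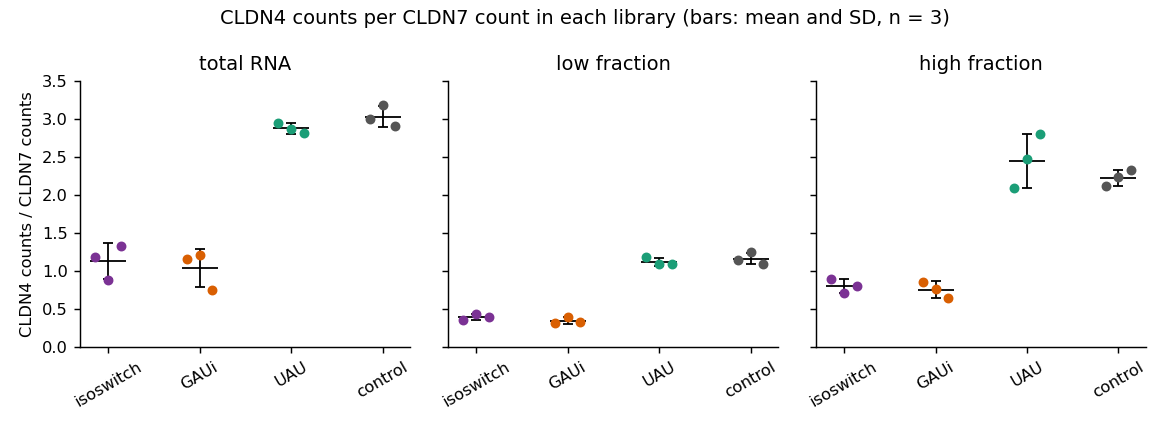
Counts of CLDN4 divided by counts of CLDN7 in the same library (y axis, linear, from 0) for isoswitch, GAUi, UAU and control cells (x axis) in total RNA, low and high fraction. Points are libraries and bars the mean and SD of 3. The highest isoswitch or GAUi point is 0.895 in the high fraction, where the lowest UAU or control point is 2.08.

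CLDN12, an atypical claudin without the usual ZO-1 binding end, had 13.2, 14.4 and 12.3 CPM in isoswitch, 12.7, 14.9 and 14.3 CPM in GAUi, 16.88, 21.20 and 20.02 CPM in UAU, and 18.74, 21.90 and 15.98 CPM in control in the high fraction. Again the lines with GAU CRISPRi lay below those without it. It fell in isoswitch against control (log2 fold change -0.52, SE 0.14, adjusted p = 0.0177), in GAUi against control (-0.44, SE 0.14, adjusted p = 0.045) and in isoswitch against UAU (-0.56, SE 0.14, adjusted p = 0.0027), by edgeR. The GAUi call ended under 6 of 11 alternatives: with DESeq2 (adjusted p = 0.0787) and without control replicate A (0.107) or B (0.223) or GAUi replicate A (0.178), B (0.0679) or C (0.0956). The isoswitch against control call ended without control replicate B (0.119) or isoswitch replicate A (0.0699) or C (0.0861). In total RNA CLDN12 had 9.02, 11.7 and 10.6 CPM in isoswitch, 12.7, 13.1 and 10.3 CPM in GAUi, 18.6, 15.8 and 16.9 CPM in UAU, and 15.6, 13.8 and 13.7 CPM in control. The isoswitch libraries were below all those of UAU and control. It fell there in isoswitch against UAU (-0.72, SE 0.14, edgeR adjusted p = 0.00802), a call that ended without isoswitch replicate A (0.0609), while GAUi against control had -0.25 (95% interval -0.54 to 0.03, adjusted p = 0.283). It averaged in the low fraction 6.69 ± 1.28 CPM in isoswitch, 8.77 ± 0.163 CPM in GAUi, 10.7 ± 2.21 CPM in UAU and 10.1 ± 1.11 CPM in control (SD, n = 3 each). No comparison of it was called there, with -0.62 (95% interval -1.02 to -0.22, edgeR adjusted p = 0.125) in isoswitch against control.

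CLDN1, a sealing claudin of skin and many epithelia, had few counts, between 0 and 34 per library. In total RNA it had 2.42, 2.21 and 3.13 CPM in isoswitch, 2.73, 1.77 and 3.74 CPM in GAUi, 0.673, 0.775 and 1.10 CPM in UAU, and 2.31, 2.00 and 2.00 CPM in control. The UAU libraries were below all others. It rose in isoswitch against UAU in total RNA (by 1.58 on the log2 scale, SE 0.37, adjusted p = 0.0232) and in the high fraction (0.99, SE 0.31, adjusted p = 0.0103), by edgeR. The first call ended without UAU replicate A (0.109) or B (0.0927) or isoswitch replicate A (0.0609) or C (0.117), and the second without UAU replicate C (0.0523) or isoswitch replicate A (0.0564). UAU against control had -1.27 (95% interval -2.02 to -0.51, adjusted p = 0.142) in total RNA and -0.80 (-1.41 to -0.20, adjusted p = 0.0514) in the high fraction. In that fraction CLDN1 averaged 4.22 ± 0.906 CPM in isoswitch, 4.10 ± 1.02 CPM in GAUi, 2.09 ± 0.490 CPM in UAU and 3.83 ± 0.986 CPM in control (SD, n = 3 each).

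CLDN3, like CLDN4 a receptor of the enterotoxin, had between 0 and 18 counts per library. In total RNA it had 0.269, 0.615 and 0.136 CPM in isoswitch, 0.327, 0.757 and 0.449 CPM in GAUi, 1.61, 2.20 and 1.37 CPM in UAU, and 0.680, 0.856 and 1.60 CPM in control. Isoswitch lay below UAU and control, and GAUi overlapped control. It fell in isoswitch against UAU (log2 fold change -2.27, SE 0.53, edgeR adjusted p = 0.0232), a call that ended without UAU replicate A (0.0617) or B (0.106) or isoswitch replicate A (0.102) or C (0.124). DESeq2 gave no adjusted p for CLDN3 there. GAUi against control had -1.03 (95% interval -2.09 to 0.03, adjusted p = 0.238) in total RNA and -0.98 (-1.83 to -0.13, adjusted p = 0.156) in the high fraction. CLDN1 and CLDN3 did not pass the filter on low counts in the low fraction, where CLDN3 averaged 0.200 ± 0.223 CPM in isoswitch, 0.179 ± 0.184 CPM in GAUi, 1.02 ± 0.402 CPM in UAU and 1.18 ± 0.276 CPM in control (SD, n = 3 each).

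The remaining members had no called difference between the lines. OCLN had 2 to 10 counts per library and passed the filter in no fit, and a near-identical copy of part of the gene makes its counts uncertain. Its mean levels ran from 0.446 CPM in UAU cells in the low fraction to 1.13 CPM in isoswitch cells in the high fraction. MARVELD2, which gathers where 3 cells meet, averaged 5.47 ± 0.434 CPM in isoswitch, 4.10 ± 1.01 CPM in GAUi, 3.85 ± 0.622 CPM in UAU and 3.55 ± 1.04 CPM in control in the high fraction (SD, n = 3 each). Isoswitch was above control in every library there, with a log2 fold change of 0.67 (95% interval 0.17 to 1.16, edgeR adjusted p = 0.0864). In total RNA MARVELD2 averaged 3.20 ± 0.853 CPM in isoswitch, 3.48 ± 0.393 CPM in GAUi, 3.56 ± 0.295 CPM in UAU and 2.53 ± 0.698 CPM in control.

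F11R averaged 8.09 ± 1.66 CPM in isoswitch, 5.28 ± 0.849 CPM in GAUi, 6.32 ± 1.66 CPM in UAU and 6.21 ± 0.989 CPM in control in the high fraction (SD, n = 3 each). Isoswitch against GAUi, which did not overlap, had a log2 fold change of 0.62 (95% interval 0.18 to 1.05, edgeR adjusted p = 0.0592). In total RNA F11R averaged 4.75 ± 0.496 CPM in isoswitch, 5.55 ± 0.636 CPM in GAUi, 7.10 ± 1.01 CPM in UAU and 6.64 ± 2.21 CPM in control. TJP1 had 28.7, 21.8 and 24.2 CPM in isoswitch, 22.37, 26.03 and 25.24 CPM in GAUi, 21.5, 25.2 and 21.8 CPM in UAU, and 25.02, 24.53 and 24.15 CPM in control in the high fraction. All 4 lines overlapped. GAUi against control had a TJP1 log2 fold change of 0.00 (95% interval -0.24 to 0.24, edgeR adjusted p = 0.999) in that fraction and 0.00 (-0.26 to 0.26, adjusted p = 0.996) in total RNA.

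**Figure D3:**
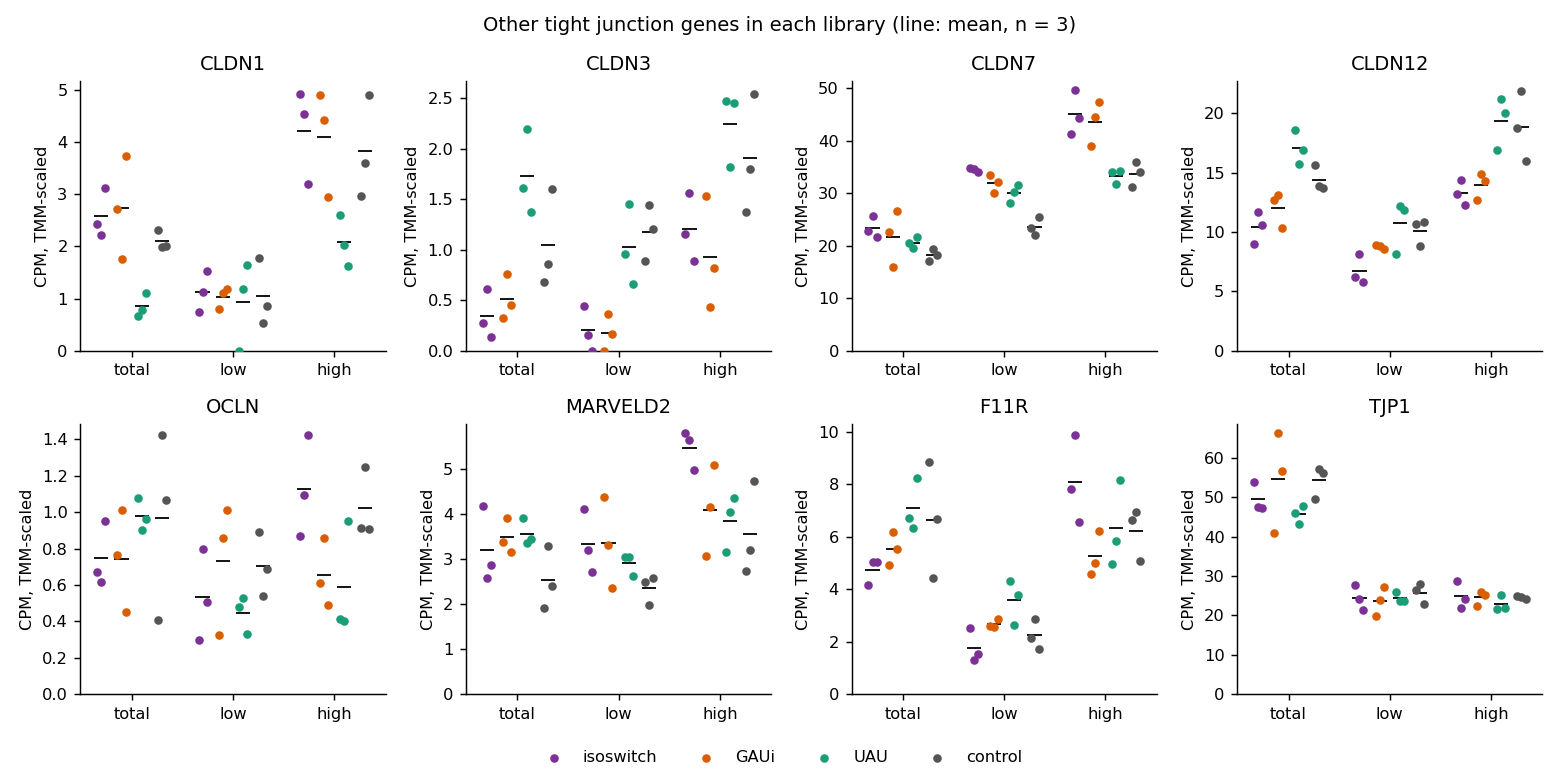
The other 8 members in CPM (y axes, linear, from 0, each with its own scale) in total RNA, low and high fraction (x axis), with isoswitch, GAUi, UAU and control libraries as coloured points and the mean of 3 as a line. CLDN7 and CLDN12 separate by GAU CRISPRi in the high fraction in opposite directions, and TJP1 overlaps in all 4 lines there.

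Counted over the list, GAUi against control in total RNA called 1 of 8 tested members (CLDN4), against 10.1% of all genes tested, and UAU against control 0 of 8, against 0.914%. Isoswitch against GAUi called 0 of 8, against 0.113%, isoswitch against UAU 4 of 8 (CLDN1, CLDN3, CLDN4 and CLDN12), against 3.42%, and the interaction 0 of 8, against 0.0243%. CLDN4, selected on its own values, was among the called members wherever a comparison of lines called any, here and in both fractions. The isoswitch libraries of total RNA also entered the selecting contrast. The member counts are therefore a description. In the low fraction isoswitch against control called 2 of 6, against 2.58%, GAUi against control 2 of 6, against 3.4%, and UAU against control 0 of 6, against 0.691%. Isoswitch against UAU called 1 of 6, against 4.25%, and the interaction 0 of 6, against 0.233%. Isoswitch against GAUi called 0 of 6, against 0.0% of all genes: edgeR called 0 genes there, with 890 at an unadjusted p under 0.05, and DESeq2 called 44.

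In the high fraction isoswitch against control called 3 of 8, against 11% of all genes, and GAUi against control 3 of 8, against 10.1%. UAU against control called 0 of 8, against 28.7%, isoswitch against GAUi 0 of 8, against 15.8%, isoswitch against UAU 4 of 8, against 41.6%, and the interaction 0 of 8, against 35.7%. The share of members called in isoswitch against UAU in that fraction was thus near the background. The median log2 fold change of the 8 tested members, CLDN4 included, in GAUi against control was -0.13 in total RNA and -0.13 in the high fraction. Over all genes tested it was 0.00 and 0.00. Comparisons with control share the control libraries.

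**Figure D4:**
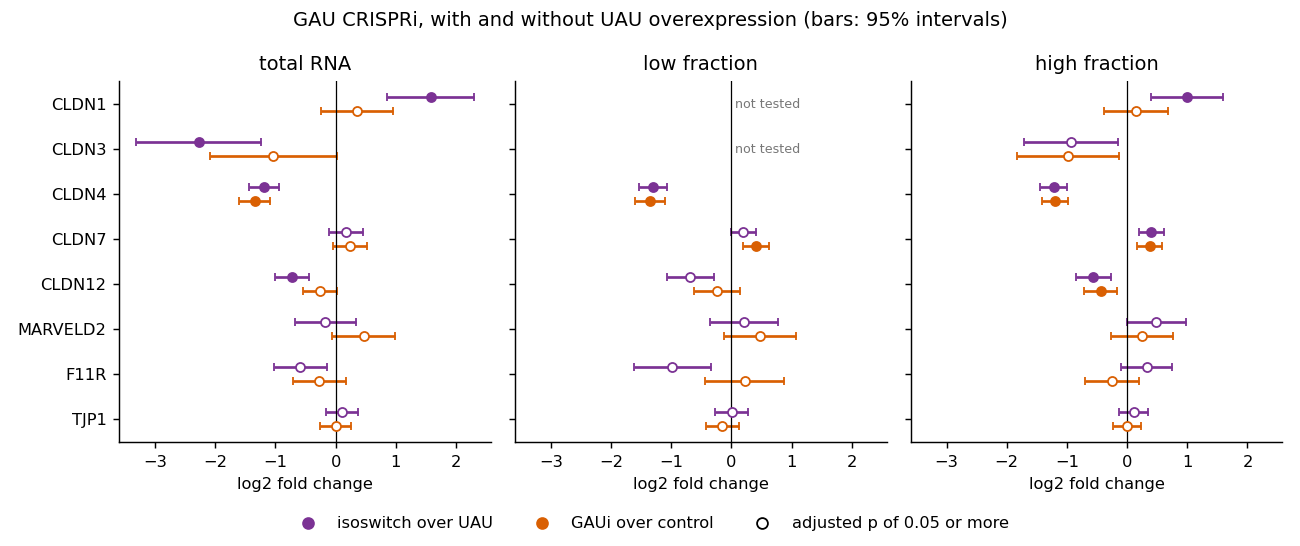
Log2 fold changes (x axis) of the 8 members that were tested (y axis) for isoswitch over UAU and GAUi over control, the 2 comparisons of GAU CRISPRi that share no library, in total RNA, low and high fraction. Bars are 95% intervals and open points have an adjusted p of 0.05 or more. CLDN4 lies between -1.35 and -1.19 in all 6 comparisons, and the TJP1 bars include 0 in all 6.

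Members differed in where they lay on the gradient. The same RNA input went into each library, so high over low compares shares within fractions, not amounts. In control cells CLDN4 had a log2 fold change of 1.39 between high and low fraction (SE 0.11, adjusted p = 4.13e-08), CLDN1 1.73 (SE 0.38, adjusted p = 0.000954), F11R 1.42 (SE 0.31, adjusted p = 0.000896), CLDN12 0.84 (SE 0.16, adjusted p = 0.000217) and CLDN7 0.45 (SE 0.11, adjusted p = 0.00274), by edgeR. TJP1 had -0.13 (95% interval -0.35 to 0.10, adjusted p = 0.342). In all, 5 of 8 tested members were called, each higher in the high fraction, against 66.0% of all genes called in either direction. The mean CLDN4 level in the high fraction was 2.63 times that in the low fraction in isoswitch, 2.99 times in GAUi, 2.43 times in UAU and 2.76 times in control.

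The lines did not differ in this ratio by a called amount. For CLDN4 the log2 high-to-low ratio against control differed by -0.02 (95% interval -0.37 to 0.32, edgeR adjusted p = 0.97) in isoswitch, 0.15 (-0.18 to 0.49, adjusted p = 0.796) in GAUi and -0.12 (-0.43 to 0.18, adjusted p = 0.721) in UAU. Of 8 tested members 0 were called in each of the 3 lines, against 0.00784% of all genes in isoswitch, 0.196% in GAUi and 6.53% in UAU.

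The 3 nearest tested genes on each side of CLDN4, chosen by position, were also followed in the high fraction, GAUi against control. STX1A had a log2 fold change of -0.53 (SE 0.14, adjusted p = 0.0139), ABHD11 -0.36 (SE 0.11, adjusted p = 0.0429) and LIMK1 -0.75 (SE 0.14, adjusted p = 0.000741) by edgeR, so 3 of 6 fell, against 10.1% of all genes called in that comparison in either direction. CLDN3 (-0.98, adjusted p = 0.156), EIF4H (-0.29, adjusted p = 0.0947) and LAT2 (-0.20, adjusted p = 0.686) were not called.

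The genes whose pattern was most like CLDN4 were ranked by Pearson r over the 12 group means of log2 CPM, each fraction centred on its 4 lines, among 8857 genes. LINC01234 (r = 0.99), the laminin chain gene LAMB1 (0.99), the ubiquitin-conjugating enzyme gene UBE2H (0.99), PPP1R35 (0.99) and the RNA-binding protein gene IGF2BP3 (0.98) stood highest. RAPH1 (-0.98), EPB41L1 (-0.96) and ERCC1 (-0.96) stood lowest. LAMB1 averaged 37.3 CPM in isoswitch, 36.6 CPM in GAUi, 65.5 CPM in UAU and 65.7 CPM in control total RNA, and 164 genes had r of at least 0.9. Of the members with enough counts, CLDN12 had r = 0.86, TJP1 -0.14 and CLDN7 -0.75. The points share libraries within a group, and r is given as a description.

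Other genes of the junction were mostly not called. As backgrounds, GAUi against control called 10.1% of all genes in total RNA and 10.1% in the high fraction, and isoswitch against control 11% there. Of 29 other tight junction genes in the files, 10 were tested in total RNA, where 0 rose and 2 fell in GAUi against control: ILDR2, one of the angulins that recruit tricellulin, averaged 9.43 ± 1.34 CPM in GAUi and 16.2 ± 3.02 CPM in control (SD, n = 3 each, log2 fold change -0.78, edgeR adjusted p = 0.008), and CXADR 3.08 ± 0.777 CPM in GAUi and 5.96 ± 0.697 CPM in control (-0.94, adjusted p = 0.0185). In the high fraction 1 rose and 0 fell in GAUi against control, the adhesion gene ESAM (log2 fold change 0.33, adjusted p = 0.0067), and 1 rose and 1 fell in isoswitch against control, LSR (0.79, adjusted p = 0.03) and CLDN15 (-0.90, adjusted p = 0.0265). Isoswitch against UAU had 1 rise and 0 falls in total RNA, LSR (0.98), against 3.42% of all genes. In the high fraction it had 1 rise, LSR (0.75), and 2 falls, ILDR2 (-0.97) and CLDN15 (-0.93), against 41.6%. UAU against control had 2 rises there, ILDR2 (0.54) and ESAM (0.20), and 0 falls, against 28.7%. In the low fraction 0 of 9 were called in isoswitch, GAUi or UAU against control, against 2.58%, 3.4% and 0.691%.

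Of 24 polarity and plaque genes, 1 of 21 rose in GAUi against control in total RNA, AMOTL2, an angiomotin-like scaffold (73.7 ± 2.59 CPM in GAUi, 54.8 ± 4.12 CPM in control, SD, n = 3 each, edgeR adjusted p = 0.0063). In isoswitch against control in the high fraction 3 of 20 rose and 0 fell: AMOTL2 (log2 fold change 0.50), the scaffold DLG1 (0.32) and YBX3 (0.27), a nucleic acid binding protein held by ZO-1. In UAU against control 4 of 20 fell and 0 rose there, among them MPP5 (-0.64), the PALS1 scaffold, and PARD6B (-0.68). Of 22 adherens junction and desmosome genes, 1 of 17 fell in GAUi against control in total RNA, the plakophilin PKP3 (-0.54), and 1 of 17 in the high fraction, the desmosomal cadherin DSG2 (-0.93). DSG2 also fell in isoswitch (-0.56) and UAU (-0.69) against control in that fraction. In total RNA, isoswitch against UAU had 1 fall of 17, DSG2 (19.5 CPM against 36.3 CPM, -0.90, edgeR adjusted p = 0.000442), and 1 rise, DSP (0.47). Of the polarity and plaque genes 1 of 21 rose there, MPP5 (0.34), against 3.42% of all genes. Of the 17 tested in the high fraction, 1 rose and 5 fell in UAU against control. In isoswitch against UAU 4 rose and 0 fell, among them CTNND1 (0.69), PKP2 (0.72) and CTNNB1 (0.44). Of the 20 polarity and plaque genes, 6 rose and 1 fell in isoswitch against UAU in that fraction, among them AMOTL2 (0.83), MPP5 (0.64) and YBX3 (0.55). In the high fraction UAU against control called 28.7% of all genes, and isoswitch against UAU 41.6%.

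Of 20 transcription and splicing factors of the epithelial state, 11 were tested. In GAUi against control 0 of 11 were called in total RNA and 1 of 11 fell in the high fraction, TFAP2C (log2 fold change -0.51, edgeR adjusted p = 0.0219). In isoswitch against control 1 rose there, EHF (0.63, adjusted p = 0.0035), and in UAU against control KLF4 rose (0.51) and KLF5 (-0.64) and TFAP2C (-0.46) fell. Of 13 genes whose products bind or process claudins, 1 of 7 rose in GAUi against control in the high fraction, against 10.1% of all genes. This was EFNB1 (1.62, edgeR adjusted p = 0.0184), which had few counts. It averaged 2.18 ± 0.402 CPM in GAUi, 1.84 ± 0.907 CPM in UAU and 0.724 ± 0.171 CPM in control (SD, n = 3 each). In UAU against control EFNB1 and SPINT2 rose and 2 fell there, against 28.7%. These counts stood beside the backgrounds given above, and the lists are described without a test of their own.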

How the data were processed

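The authors deposited raw counts per gene symbol for each of the 36 libraries, with no normalization. Per the labels, libraries were made with the Lexogen QuantSeq 3' kit, which reads 3' ends, so a count does not scale with transcript length. Per the submitters' processing notes, STAR, featureCounts, DESeq2 and hg38 were used. The gene annotation, tool versions and strand setting were not given in the sources used here.

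Counts were tested with edgeR 4.0.16 under R 4.3.3 (quasi-likelihood F test by glmQLFit and glmQLFTest, TMM scaling, filterByExpr on the groups, Benjamini-Hochberg adjustment over all genes tested), with the 12 libraries of a fraction in 1 fit. High against low fraction used the 9 control libraries, and the high-to-low ratio the 24 fraction libraries. SE is the log2 fold change over the square root of F, and intervals are 1.96 SE. CPM use TMM factors over all 36 libraries. Log2 CPM for the ranking by r had a prior count of 2 and an average minimum of 3. The steps were tested on simulated data. Alternatives were RLE scaling, no low-count filter, DESeq2 1.42.0, a replicate block, the groups compared alone, and each library left out.

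The members and lists were chosen with earlier results of these data known. All 9 members are named, and from each other list up to 3 called genes with the smallest p in a comparison. Some genes that this rule or the marker lists took are not reported here. Isoswitch against control in total RNA was not tested, since it led to CLDN4. Gene positions and promoters come from RefSeq for GRCh38.p14, in which 25374 of 26485 symbols matched, older symbols included. F11R had no promoter entry. Protein and codon content were not analysed here. Reads were counted without molecular identifiers. The tests take in both counting error and the spread between replicates.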

Additional observations from a re-analysis of the deposited data

How the results depend on the processing

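Of 37 gene results recomputed, 25 were called, and 15 of these kept their call under every alternative, among them all 9 of CLDN4. The other 10, all of CLDN1, CLDN3, CLDN7 or CLDN12, lost it at least once. CLDN4 values near 0 changed sign when single libraries were left out: the interaction ran from -0.019 to 0.12 in the low and from -0.12 to 0.11 in the high fraction, and the isoswitch high-to-low ratio from -0.14 to 0.037. Without TMM factors, 101 of 108 mean levels moved by less than 1 SD and 7 moved by more. The causes of the changes below were not tested, except that fewer libraries or more genes enter by construction.

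Genes called, total RNA. GAUi against control: 1248, 329 with the groups compared alone, 531 to 2134 without single libraries. UAU against control: 113, 236 without the filter, 187 with DESeq2, 916 alone, 25 to 43 without single libraries. Isoswitch against GAUi: 14, 276 without the filter, 148 with DESeq2, 0 alone, 0 to 642 without single libraries. Isoswitch against UAU: 423, 1358 alone, 171 to 194 without single libraries. Interaction: 3, 95 without the filter, 43 with DESeq2, 2 to 76 without single libraries. Low fraction. Isoswitch against control: 321, 538 without the filter, 105 alone, 127 to 675 without single libraries. GAUi against control: 423, 743 without the filter, 271 alone, 177 to 760 without single libraries. UAU against control: 86, 339 without the filter, 183 with DESeq2, 22 with the replicate block, 0 alone, 6 to 209 without single libraries. Isoswitch against GAUi: 0, 29 without the filter, 44 with DESeq2, 56 alone. Isoswitch against UAU: 529, 339 with the replicate block, 201 to 425 without single libraries. Interaction: 29, 251 without the filter, 213 with DESeq2, 0 with the replicate block, 0 to 167 without single libraries. High fraction, without single libraries: isoswitch against control 1322, 651 to 1333, GAUi against control 1215, 563 to 980, isoswitch against GAUi 1897, 772 to 1839. High-to-low ratio. Isoswitch: 1, 215 without the filter, 133 with DESeq2, 0 to 469 without single libraries. GAUi: 25, 44 with RLE scaling, 103 without the filter, 274 with DESeq2, 0 to 190 without single libraries. UAU: 833, 367 to 1189 without single libraries.

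For the members called, in total RNA, GAUi against control called 1, and 1 to 2 without single libraries, UAU against control 0, and 1 alone, and isoswitch against UAU 4, 3 with DESeq2, which gave CLDN3 no adjusted p, and 1 to 4 without single libraries. In the low fraction, isoswitch against control called 2, 1 alone, and 1 to 2 without single libraries. GAUi against control called 2, and 1 without the filter, with DESeq2, with the replicate block, alone, and without any single library. Isoswitch against UAU called 1, 2 without the filter, and 1 to 2 without single libraries. In the high fraction, GAUi against control called 3, and 1 to 3 without single libraries, UAU against control 0, 1 without the filter, and 0 to 1 without single libraries, isoswitch against GAUi 0, 1 without the filter or alone, and 0 to 1 without single libraries, and the interaction 0, and 0 to 1 without single libraries.

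Between libraries with the same letter, deviations from group means correlated between -0.49 and 0.33 across lines, and between -0.34 and 0.20 across fractions of a line. With 3 libraries per group this cannot tell whether a letter marks a shared culture or lysate. The main fits treated the libraries as unpaired. With the replicate block, CLDN7 in the low fraction, GAUi against control, had an adjusted p of 0.0828, and no other called member named here lost its call. Members with few counts (CLDN1, CLDN3, OCLN) are limited by depth.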
